A study of Mus musculus with 4 samples.

Results

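The windows of Ptma, Ncl and Npm1, 3 genes for acidic nuclear proteins, held 41 of the 47777 eIF4A2 eCLIP peaks deposited for mouse embryonic stem cells. Peaks were assigned to a gene when their midpoint lay in its window on its strand in mm9: chr1:88422500-88428000 on the plus strand for Ptma, chr1:88239000-88258000 on the minus strand for Ncl and chr11:33050000-33065500 on the minus strand for Npm1. This gave 31 peaks in Ptma, 4 in Ncl and 6 in Npm1. The members were selected on the deposited peaks, that is on a log2 fold of IP over input above 1 and on position, so counts, folds and positions are descriptions and carry no test.

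The cells were J1, a mouse embryonic stem cell line of strain 129S4/SvJae grown without feeder cells in serum and leukemia inhibitory factor and crosslinked with ultraviolet light (400 mJ per square centimetre, 254 nm). The IP group held 2 libraries of RNA recovered with an antibody against eIF4A2, and the input group held 2 libraries without that recovery. The authors deposited 1 list for the 4 libraries, in which each peak has a log2 fold of IP over input. The list has no value for any single library, so the spread between replicates, the depth and the error of a fold are unknown. It also gives no expression levels, so the labelled cell type was not checked against marker genes.

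eIF4A2 is a DEAD-box RNA helicase, closely related to eIF4A1, the helicase of the cap-binding complex that unwinds the start of mRNAs for ribosome scanning. Ptma encodes prothymosin alpha, a small and largely unstructured protein that binds histone H1 and acts in chromatin and cell survival. Ncl encodes nucleolin and Npm1 encodes nucleophosmin, which are abundant proteins of the nucleolus. Nucleolin binds RNA and acts in ribosomal RNA synthesis and processing, and nucleophosmin is a histone chaperone that acts in ribosome assembly.

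The coding sequences of Ptma and Npm1 were rich in codons for acidic amino acids. Codons for aspartate or glutamate were counted in the GENCODE M21 coding sequences. They made up 47.7% of the 111 codons of Ptma (stop codon included) and 22.6% of the 292 codons of Npm1. A stretch of 50 codons with the most of them is printed for each, because it shows what these members share apart from their peaks. Where several windows held equally many (2 in Ptma and 12 in Npm1), the 5′-most is given. Aspartate and glutamate codons in frame are in capitals, and the lines give codons 50 to 99 of Ptma and 148 to 197 of Npm1.
Ptma: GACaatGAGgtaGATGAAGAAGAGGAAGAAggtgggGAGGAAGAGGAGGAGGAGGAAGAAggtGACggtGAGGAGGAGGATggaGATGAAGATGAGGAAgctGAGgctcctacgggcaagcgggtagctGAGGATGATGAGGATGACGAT
Npm1: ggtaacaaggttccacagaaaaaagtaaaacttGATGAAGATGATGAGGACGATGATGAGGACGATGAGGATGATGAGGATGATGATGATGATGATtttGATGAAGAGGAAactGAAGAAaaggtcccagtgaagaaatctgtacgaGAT
These windows held 34 acidic codons in Ptma and 28 in Npm1. The longest unbroken run was 8 codons in Ptma and 21 in Npm1. Among the 21517 genes with a coding sequence of at least 50 codons, 0.302% had a window with as many as 34, 0.809% had one with as many as 28, and the median gene reached 11. Whether any peak lay on these codons was not examined, because the peak positions are in mm9 and no mm9 annotation was used here.

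**Figure D1:**
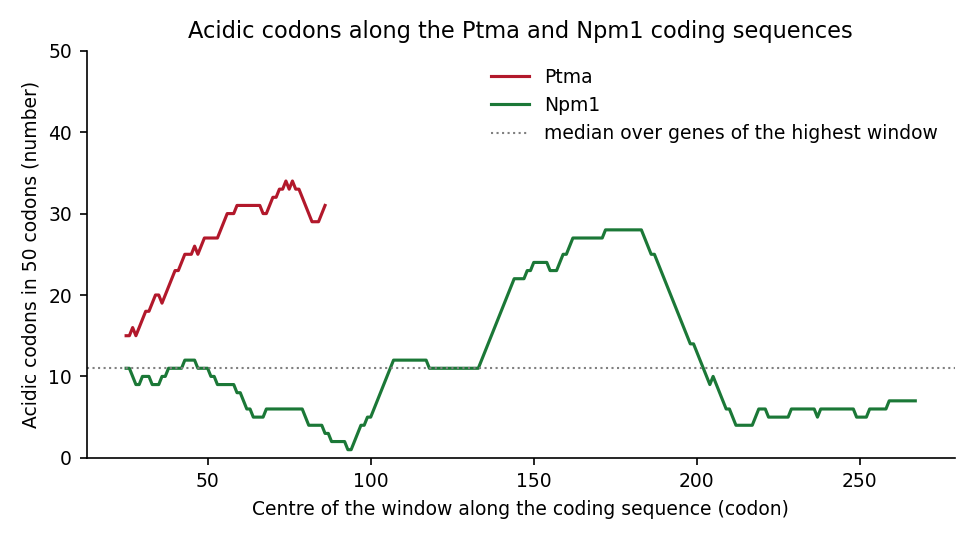
Number of aspartate and glutamate codons in each window of 50 codons (vertical axis) against the centre of the window along the coding sequence (horizontal axis, codons) for Ptma and Npm1. The highest windows hold 34 codons in Ptma and 28 in Npm1, both above the dotted line at 11, the median over genes of their highest window.

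Ptma carried a dense chain of eIF4A2 peaks in the 5′ part of its window and none in the 3′ part. All 31 peaks had their midpoint below position 88425300, the boundary set between the parts, and the 3′ part held 0. The boundary was set with earlier results of these data known, so 31 against 0 is a description only. The chain ran from 88423514 to 88425212, 1699 bases, and peaks covered 1099 of them, or 64.7%. The density was 18.2 peaks per kb of the chain. The 2788 bases between the last peak and the end of the window carried no peak above 2-fold. Since the list holds only peaks above a log2 fold of 1, a count of 0 says nothing of weaker enrichment there.

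The folds of the Ptma peaks were high for the list. Their median log2 fold was 2.51, or 5.71-fold, with an interquartile range of 2.19 to 2.74, against a median of 1.65 over the whole list with an interquartile range of 1.29 to 2.07. All 31 lay above the median of the list. At 4-fold or more (log2 fold 2) stood 25 of the 31 peaks, or 80.6%, against a background of 28.3% of all peaks. At 8-fold or more (log2 fold 3) stood 3, or 9.68%, against 4.03%. The share at 8-fold rests on 3 peaks of one gene, and nothing is read from either share, since fold and position chose the peaks.

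The enrichment along Ptma was high after the 5′-most peak, dipped and then stood at an intermediate level. The 5′-most peak, at 88423514 to 88423530, had a log2 fold of 1.85. It was followed by 14 peaks at 4-fold or more, from 88423541 to 88424137, with a median log2 fold of 2.77. The 5 highest peaks of the gene all belonged to this run. The highest, at 88423959 to 88423978, had a log2 fold of 3.47 (11.1-fold), above 98.7% of the list. Those at 88423745 to 88423802 and 88423724 to 88423744 touched each other and had log2 folds of 3.10 and 3.09. The remaining pair had log2 folds of 2.87 (88423979 to 88424009) and 2.86 (88423892 to 88423927).

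The dip directly followed this run, with no unlisted base between them. The peaks at 88424138 to 88424151 and 88424152 to 88424173 had the lowest log2 folds of the gene, 1.84 and 1.68. From 88424138 to 88424423, 5 of 6 peaks were below 4-fold, and the other had a log2 fold of 2.16. All 10 peaks from 88424447 to the end of the chain were again at 4-fold or more, with log2 folds of 2.09 to 2.74. They included the widest peaks of the gene, one of 98 bases at 88424563 to 88424660 (log2 fold 2.28) and one of 95 bases at 88424955 to 88425049 (2.74). The 3′-most peak, at 88425183 to 88425212, had a log2 fold of 2.09, and its midpoint lay 103 bases from the boundary, the nearest of all 31.

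Adjacent peaks of Ptma tended to have similar folds. The Spearman correlation between the fold of a peak and that of the next was 0.67 over 30 pairs. The correlation was -0.37 between fold and order from the 5′ end and 0.19 between fold and width (31 peaks each). These peaks share one gene and the same libraries, so the correlations are descriptions. No such values are given for the rest of the list, so no trait particular to Ptma is read from them. At 16 of the 30 steps one peak began at the base after the previous one ended, and no gap exceeded 87 bases. The 31 peaks formed 15 unbroken blocks, and the longest of them held 10 peaks over 315 bases, from 88423892 to 88424206. Within that block the log2 fold ranged from 1.68 to 3.47, so the highest and the lowest peak of Ptma lay in the same block.

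**Figure D2:**
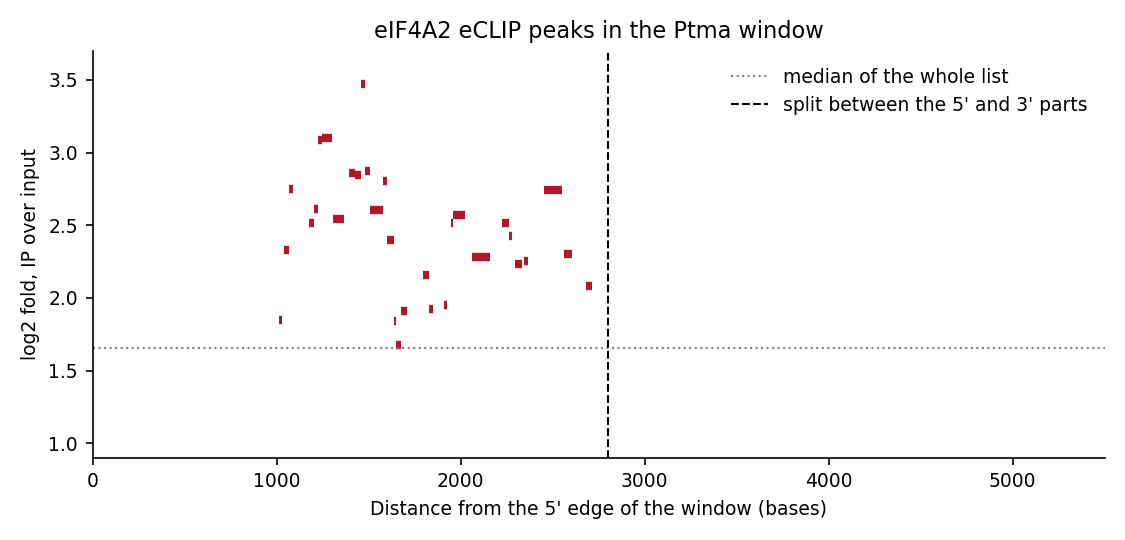
Peaks of the Ptma window, each drawn as a bar at its log2 fold of IP over input (vertical axis) over the bases it covers, measured from the 5′ edge of the window (horizontal axis, bases). All 31 bars lie left of the dashed boundary between the 5′ and 3′ parts and above the dotted median of the whole list (1.65), and the bars dip to 1.68 between the high 5′ run and the later peaks.

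The span of the chain in Ptma, gaps included, was longer than the spliced mRNA of the gene. The 1099 bases under its peaks were fewer than the bases of that mRNA. In GENCODE M21, an annotation of GRCm38, the principal transcript Ptma-201 has 5 exons and 1216 bases, and its longest exon has 748. The first exon has 225 bases and the first intron 2222. The 1699 bases of the chain therefore exceeded every exon of this transcript and fell short of the first intron. Only lengths were compared, and no peak was placed on an exon or intron. Ptma also has a named pseudogene, Ptma-ps1. Only names of this form were searched, so pseudogenes of Ptma, Ncl or Npm1 under other names would have been missed. How the authors counted reads that match several places is not given in the sources used here.

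Ncl carried 4 peaks of moderate fold, grouped toward the 5′ side of its window. From 5′ to 3′ on the minus strand, the first peak, at 88255848 to 88255948, was 101 bases wide and had a log2 fold of 1.93. The peak touching it, at 88255782 to 88255847, had the lowest value of the gene, 1.29. The peaks at 88255513 to 88255544 and 88255260 to 88255304 had log2 folds of 1.46 and 1.89. The outer peaks were thus higher than both inner ones. The median was 1.68 (3.20-fold), close to 1.65 over the whole list. None of the 4 reached 4-fold, against 28.3% of all peaks, and nothing is read from so few peaks of one gene.

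The Ncl peaks spanned 689 bases and covered 35.4% of them. The remaining 16260 bases of the window 3′ of them carried no peak. The principal transcript Ncl-201 has 14 exons in GENCODE M21, a first exon of 195 bases and a first intron of 982, lengths given here without placing the peaks on them.

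Npm1 carried 6 peaks within 414 bases, with the highest folds in a touching pair just 3′ of its 5′-most peak. From 5′ to 3′ on the minus strand, the first peak, at 33062931 to 33062979, had a log2 fold of 1.05, the lowest of all 41 peaks. It was followed by the touching pair at 33062862 to 33062878 and 33062822 to 33062861, with log2 folds of 2.10 and 2.12. A second touching pair, at 33062694 to 33062753 and 33062679 to 33062693, had values of 1.59 and 1.78, and the last peak, at 33062566 to 33062581, had 1.10. Both end peaks were thus close to the 2-fold limit of the list, while the 5′ touching pair alone exceeded 4-fold. These 2 of 6 peaks make 33.3%, against 28.3% of all peaks, and none reached 8-fold, against 4.03%.

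The median log2 fold in Npm1 was 1.68 (3.21-fold). Peaks covered 47.6% of the group, and the 12566 bases of the window on its 3′ side held none. The principal transcript Npm1-201 has 11 exons in GENCODE M21, with a first exon of 285 bases and a first intron of 1294.

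**Figure D3:**
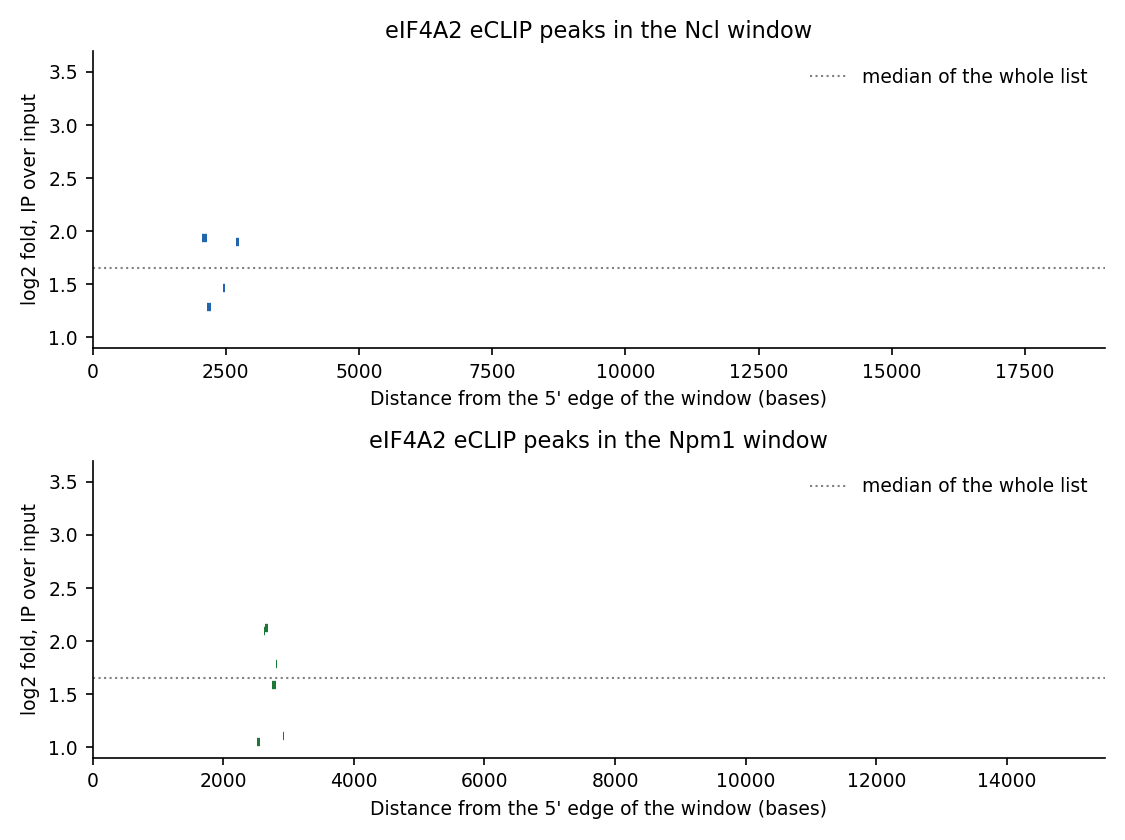
Peaks of the Ncl window (top) and the Npm1 window (bottom), each drawn as a bar at its log2 fold of IP over input (vertical axis) over the bases it covers, measured from the 5′ edge of the window (horizontal axis, bases). The midpoints of the 4 Ncl peaks and the 6 Npm1 peaks lie within the first 2719 and 2927 bases of windows of 19000 and 15500 bases. The bars of each gene lie on either side of the dotted median of the whole list (1.65).

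In each window the peaks ended well before its 3′ edge. Measured from the 5′ edge, the last midpoint lay 2697 bases into the Ptma window (49.0% of its length), 2719 bases into the Ncl window (14.3%) and 2927 bases into the Npm1 window (18.9%). The windows reach beyond the genes by different lengths, so these shares are not positions along the transcripts.

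Ptma stood above the other members in the number of peaks and in median fold. Its peaks were also more closely packed than those of Npm1, by an extent that depended on the measure. Over the bases from the first to the last peak, its density of 18.2 peaks per kb compared with 5.81 in Ncl and 14.5 in Npm1. Peaks covered 64.7% of those bases in Ptma, 35.4% in Ncl and 47.6% in Npm1. Adjacent peaks touched or lay up to 20 bases apart at 21 of 30 steps in Ptma, 1 of 3 in Ncl and 2 of 5 in Npm1. Per kb of window the density of Ptma was 5.64, against 0.211 in Ncl and 0.387 in Npm1, values that depend on the unequal margins of the windows. The highest Ncl peak was exceeded by 26 of the 31 Ptma peaks, and the highest Npm1 peak by 24. The ranges nevertheless overlapped: 2 of the 4 Ncl peaks and 3 of the 6 Npm1 peaks lay below the lowest Ptma peak, and the rest lay within the range of Ptma. The medians of Ncl and Npm1 were alike to 2 decimals. The median width was 30.0 bases in Ptma, 55.5 in Ncl and 28.5 in Npm1, against 32.0 in the whole list. No test of these differences was made, since the peaks of a gene are not replicates and the choice of genes followed their peaks.

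**Figure D4:**
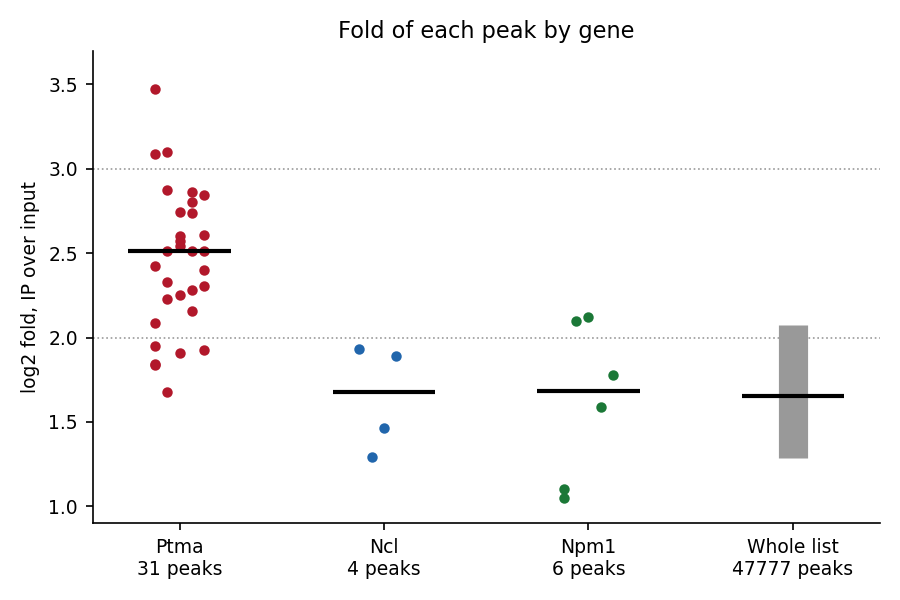
Log2 fold of IP over input (vertical axis) for each peak of Ptma, Ncl and Npm1 (points), with the median of each gene (black bar) and, for the whole list, the median and the interquartile range (grey bar). The Ptma peaks lie between 1.68 and 3.47, against 1.29 to 1.93 in Ncl and 1.05 to 2.12 in Npm1.

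Joining peaks on one strand up to 200 bases apart gave the Ptma chain the most peaks of any stretch in the list, but at 1000 bases 5 other stretches held as many or more. At 200 bases the next stretches held 23 peaks (chromosome 19, minus strand, median log2 fold 1.69), 21 peaks (chromosome 1, minus strand, 2.21) and 21 peaks (chromosome 11, minus strand, 3.66). Of the 51 stretches with 10 or more peaks, 3 had a median at or above that of Ptma, itself included. The 6 peaks of Npm1 formed one stretch, and 0.722% of the 38081 stretches had as many peaks or more. Its median was above that of 37.2% of the 886 stretches of 4 or more peaks. The Ncl peaks fell into 3 stretches at 200 bases and into 1 at 1000 bases, where 5.67% of 31595 stretches had as many peaks or more.

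**Figure D5:**
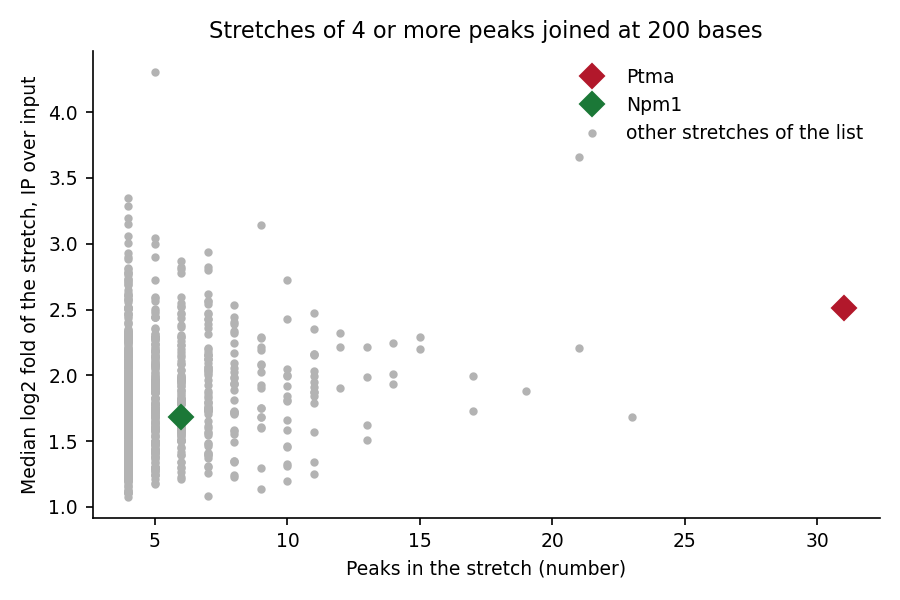
Median log2 fold of IP over input (vertical axis) against the number of peaks (horizontal axis) for the 886 stretches of 4 or more peaks joined at 200 bases. Ptma lies farthest to the right with 31 peaks and a median of 2.51, Npm1 lies among the other stretches with 6 peaks and a median of 1.68, and Ncl has no stretch of this size.

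Outside the windows, no peak on the same strand lay nearer than 27.3 kb. Such distances were not measured over the rest of the list, so no isolation is read from them. The nearest plus-strand peaks outside the Ptma window lay 165.8 kb away on its 5′ side (log2 fold 1.19) and 74.1 kb away on its 3′ side (1.67). For Ncl the nearest minus-strand peaks lay 220.6 kb away on the 5′ side (2.33) and 3325.3 kb away on the 3′ side (1.82). For Npm1 they lay 52.1 kb away on the 5′ side (1.02) and 27.3 kb away on the 3′ side (2.24). The counts therefore did not hinge on the exact edges of the windows. On the opposite strand, the windows of Ptma and Npm1 held 0 peaks and that of Ncl held 2.

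The folds in the 3 genes were seldom simple ratios. After 1 constant of 0.24 on the log2 scale was taken off, every value in the list equalled the log2 of a ratio of whole numbers with a lower number up to 1000 (relative tolerance 1e-08). In its most reduced form, the lower number was above 10 for 36 of the 41 peaks (87.8%), against 24.4% of the whole list. Its median was 37 in Ptma (range 5 to 80), 23.5 in Ncl (3 to 71) and 40.5 in Npm1 (11 to 68), against 4 in the whole list. The highest Ptma peak, for example, stood at 160 to 17, and a pair of Ptma peaks with the same log2 fold of 2.51 stood at 29 to 6. A reduced ratio does not give the read counts themselves, and no error was derived from it.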

How the data were processed

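The data were eCLIP libraries of J1 mouse embryonic stem cells, 2 IP and 2 input. The submitters' processing notes name cutadapt 1.18, STAR 2.6.1b and mm9. How peaks were called, filtered and combined over replicates is not stated in any label or header. The values are log2 folds of IP over input, 1 per peak, calculated and deposited by the authors; the scale was read from the values, all above 1. Strands are those of the list, and positions count from 1.

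Computed here, with Python 3.11.15, numpy 2.4.6, pandas 2.3.3, scipy 1.17.1 and matplotlib 3.10.9, were membership by midpoint, counts, medians, gaps, stretches (200 and 1000 bases), reduced ratios (with the constant that gives the simplest ratios) and acidic codons per 50 codons in GENCODE M21. Codon counts and sequence of Ncl are not reported here. Window membership, joining and ratios were tested on simulated lists, and all 11 checks returned the values the lists were made with. Members, windows, the Ptma boundary and alternatives were chosen with earlier results of these data known. Individual peaks were named by a rule: all peaks of a gene with 10 or fewer; otherwise the 5 highest, 2 lowest, 2 widest and both end peaks, with the peak nearest the Ptma boundary. Other genes and peak sequences were not analysed, since no mm9 annotation or genome was used here. Depth per library is unknown.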

Additional observations from a re-analysis of the deposited data

How the results depend on the processing

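Of 44 alternative values, 31 stayed within 1.5 times the count, or within the binomial interval of the median (for 4 peaks, their range). Counting peaks at 8-fold or more left 3 in Ptma, all in its 5′ part, 0 in Ncl and 0 in Npm1, and counting those at 4-fold or more left 0 in Ncl and 2 in Npm1. Joining peaks within 50 bases left 7 in Ptma, all in the 5′ part. A minimum width of 20 bases left 3 in Npm1. The opposite strand held 0 peaks in Ptma, 2 in Ncl and 0 in Npm1. With the boundary 200 bases further 5′, 1 Ptma peak fell in the 3′ part. These changes follow from how each alternative was made. Some unchanged values do too, since stricter fold, width or joining settings could not add peaks to a Ptma 3′ part that held 0. No median moved beyond its interval. For Ncl that interval was the range of its peaks, which a median of the same peaks, selected or joined, could not leave. For the few peaks of Npm1 the interval is about as wide as their range, so for these genes no stability is read from this. For Ptma, counting any shared base kept all 31 peaks and the width limit kept 27, so its median could hardly move. Joining within 50 bases gave Ptma a median log2 fold of 2.57 against 2.51. No stability is read for Ptma either. The difference in median fold between the parts of Ptma has no value, because the 3′ part held 0 peaks. No paired analysis was possible because each peak has a single fold for all libraries together, which also prevented leaving out a replicate. With depth unknown, its limits were not measured.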

Other observations

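The window of Ncl held 2 peaks on the plus strand, opposite to the gene. They lay 5′ of the Ncl peaks, at chr1:88256264-88256301 with a log2 fold of 1.24 and at chr1:88256609-88256675 with a log2 fold of 1.19, starting 315 and 660 bases beyond the 5′-most Ncl peak. The transcript they belong to was not analysed here. They were the only peaks on either strand in the 167.6 kb between the 5′-most Ncl peak and the 5′-most Ptma peak.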
